A study of Mus musculus with 4 samples.

Results

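The 10 genes described here encode the proteins that cut, trim and rejoin antigen receptor gene segments. They were taken by name from 55573 mouse gene identifiers in 4 libraries. Rag1 and Rag2 encode the recombinase, and Dntt encodes terminal transferase. Xrcc5, Xrcc6, Prkdc, Dclre1c, Lig4, Xrcc4 and Nhej1 encode the core of non-homologous end joining. All 10 were found and all 10 passed the filter on low values, set at 1 FPKM for the mean of the KO or of the WT libraries (FPKM is a fragment count scaled to exon length and to the size of the library).

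RNA was sequenced from sorted bone marrow B cells of C57BL/6 mice aged 8 to 12 weeks. The gate, Fr.C+C', covers late pro-B cells and early, cycling pre-B cells in the Hardy scheme of B cell development. Of the 4 libraries, 2 came from mice labelled ADAR1 KO (KO 1 and KO 2) and 2 from wild type mice (WT 1 and WT 2). ADAR1 is an RNA editing enzyme that deaminates adenosine to inosine in duplex RNA. The labels name neither the allele nor the cells in which it is lost. They also do not say whether replicate libraries are from different mice, so p-values measure the spread between libraries and that spread may be technical.

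V(D)J recombination assembles an immunoglobulin gene from separate V, D and J segments. RAG1 and RAG2 together recognise signal sequences beside the segments and cut the DNA there, leaving hairpin-sealed coding ends. The Ku heterodimer (Ku80 from Xrcc5, Ku70 from Xrcc6) binds the ends and recruits DNA-PKcs (Prkdc), which activates Artemis (Dclre1c) to open the hairpins. Terminal transferase adds untemplated nucleotides, and DNA ligase IV (Lig4) with its partners XRCC4 (Xrcc4) and XLF (Nhej1) seals the join. In B cell development heavy chain segments are joined in pro-B cells and light chain segments in small pre-B cells, with recombinase expression lowered in the cycling cells between these stages.

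The promoters of the lymphoid-specific genes held fewer CpG than those of the general repair genes, most clearly against Lig4, Xrcc4 and Xrcc6. GC content did not separate them, at 50% in Rag1, 48% in Xrcc5 and 50.7% in Nhej1. The sequences of Rag1, Rag2 and Dntt are shown with those of Lig4 and Xrcc6, from the CpG-rich end, as the contrast. Each is the RefSeq window of 250 bases before to 50 bases after the gene start, build GRCm38.p6, written 5′ to 3′ with every CpG in capitals. For Xrcc6 the start in RefSeq lies inside the gene as GENCODE M21 draws it, downstream of the gene start given below, so the window shown is not at that start.
Rag1 promoter, minus strand, chr2:101649483-101649782: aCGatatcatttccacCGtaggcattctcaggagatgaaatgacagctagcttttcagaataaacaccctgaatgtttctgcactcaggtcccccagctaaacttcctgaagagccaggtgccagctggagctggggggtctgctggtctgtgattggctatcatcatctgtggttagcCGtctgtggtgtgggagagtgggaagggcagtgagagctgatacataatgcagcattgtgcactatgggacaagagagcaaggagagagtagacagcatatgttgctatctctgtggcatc
Rag2 promoter, plus strand, chr2:101624462-101624761: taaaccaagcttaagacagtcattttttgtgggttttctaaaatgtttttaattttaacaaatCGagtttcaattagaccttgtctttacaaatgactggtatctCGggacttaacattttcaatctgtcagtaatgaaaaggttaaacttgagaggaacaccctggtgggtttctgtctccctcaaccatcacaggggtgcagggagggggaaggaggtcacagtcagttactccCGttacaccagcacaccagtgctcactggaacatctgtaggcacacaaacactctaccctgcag
Dntt promoter, plus strand, chr19:41029025-41029324: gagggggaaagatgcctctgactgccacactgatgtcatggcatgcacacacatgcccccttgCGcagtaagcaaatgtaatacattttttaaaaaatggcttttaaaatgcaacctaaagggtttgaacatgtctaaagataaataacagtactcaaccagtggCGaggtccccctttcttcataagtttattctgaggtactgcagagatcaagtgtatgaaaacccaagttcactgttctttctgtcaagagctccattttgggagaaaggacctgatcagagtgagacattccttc
Lig4 promoter, minus strand, chr8:9977631-9977930: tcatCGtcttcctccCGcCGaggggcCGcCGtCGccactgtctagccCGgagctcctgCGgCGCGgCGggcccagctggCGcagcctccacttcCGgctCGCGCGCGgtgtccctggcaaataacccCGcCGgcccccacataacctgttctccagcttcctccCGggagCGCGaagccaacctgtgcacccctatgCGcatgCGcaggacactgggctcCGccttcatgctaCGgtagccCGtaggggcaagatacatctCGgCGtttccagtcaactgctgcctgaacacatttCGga
Xrcc6 promoter, plus strand, chr15:82016119-82016418: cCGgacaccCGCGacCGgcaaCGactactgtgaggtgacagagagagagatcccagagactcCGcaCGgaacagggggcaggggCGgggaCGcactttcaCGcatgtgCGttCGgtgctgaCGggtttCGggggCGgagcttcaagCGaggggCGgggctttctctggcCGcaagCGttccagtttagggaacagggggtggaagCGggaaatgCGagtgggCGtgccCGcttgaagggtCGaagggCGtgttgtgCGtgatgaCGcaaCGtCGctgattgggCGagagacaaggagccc

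Rag1 and Rag2 each held 3 CpG in this window and Dntt held 2. The median over 32817 mouse promoters of this length was 7, and 23.3% of them held fewer than 3. Xrcc6 held 30 CpG and the printed Lig4 window also held 30, more than 88.3% of promoters. A second Lig4 start held 29, and Xrcc4 held 31. Xrcc5, Dclre1c and Nhej1 lay between, with 9, 12 and 10. RefSeq windows were matched for 9 of the 10 genes, all but Prkdc.

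The promoters were also searched on both strands for 7 short motifs. TGTGGT, the core bound by Runx factors, was found in 2 places in the Rag1 window and in none of the windows of the other 8 genes. It was present in 16.8% of all promoters. CCAAT was found once in Rag1, once in Xrcc5, once in Xrcc6 and 3 times in Dclre1c, against a match in 37.4% of all promoters. The E box CANNTG had 4 matches in Rag1, 3 in Dntt, 2 each in Rag2, Xrcc5, Dclre1c and both Lig4 windows, 1 each in Xrcc6 and Nhej1 and none in Xrcc4, and 72.3% of all promoters held at least 1. The more specific E box CAGGTG, itself one of the forms of CANNTG, had 1 match in Rag1 and 20.2% of all promoters held it. GGGCGG, the core bound by Sp1, had no match in Rag1, Rag2, Dntt, Xrcc5 or 1 of the Lig4 windows, 1 match in Dclre1c, 2 in Nhej1 and in the other Lig4 window, and 3 each in Xrcc6 and Xrcc4, against 35.6% of all promoters. GTAAACA, bound by Foxo factors, and TATAAA had no match in any of the windows. They were present in 3.65% and 13.6% of all promoters. These matches describe the letters of the windows only.

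Each library held between 15107478 and 16402991 fragments assigned to annotated genes, as recovered from the steps in the low FPKM values. KO 1 and KO 2 differed more from each other than WT 1 and WT 2 did, with an SD across genes of the log2 difference of 0.487 in KO and 0.322 in WT. The targeted gene Adar stood at 15.19 and 16.79 FPKM in KO 1 and KO 2, against 15.04 and 14.62 FPKM in WT 1 and WT 2, and a value over the whole gene cannot check the loss of some exons. Of 13281 genes tested with limma on log2(FPKM + 1), 27 were lower and 0 higher at an adjusted p under 0.05 in KO, and 800 were lower and 856 higher at an unadjusted p under 0.05.

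The sorted identity was checked with 24 B lineage genes, of which Rag1 is one. Their sum was 2448 and 1288 FPKM in KO 1 and KO 2, against 2836 and 3016 FPKM in WT 1 and WT 2. B cell genes were thus abundant in all 4 libraries and lowest in KO 2. Of the 24, 15 lay below both WT libraries in both KO libraries and 0 above, where 31.7% and 19.7% of all genes did. The 24 held 0.407% to 0.939% of the fragments of a library, against 2.68% to 7.57% for a list of 19 neutrophil markers. The 19 neutrophil markers summed to 37806 and 77474 FPKM in KO and to 29205 and 27207 FPKM in WT, with 16 of 19 above both WT libraries in both KO libraries and none at 0. The 10 monocyte markers summed to 3117 and 5887 FPKM in KO and to 2273 and 2290 FPKM in WT. Their median log2 difference from the WT mean was -0.049 in KO 1 and 0.987 in KO 2. Of the 10, 5 lay above both WT libraries in both KO libraries and 0 below. The 12 markers of early progenitors summed to 190 and 141 FPKM in KO and to 199 and 216 FPKM in WT. That sum follows its most abundant genes. Over the 10 of them tested, the median log2 difference from the WT mean was 0.137 in KO 1 and 0.105 in KO 2. Of these, 4 lay above both WT libraries in both KO libraries and 3 below, where 19.7% and 31.7% of all genes did. In these bulk libraries fewer cells of a type and less RNA per cell cannot be told apart. The part of these marker lists in the values below was not tested.

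No gene of the 10 passed the test. For 8 of the 10, against 73.5% of all genes, KO 1 and KO 2 differed more than WT 1 and WT 2 did. None had a call at an adjusted p under 0.05 in limma, where 0.203% of all genes did (0% higher and 0.203% lower), and none had an unadjusted p under 0.05, where 12.5% of all genes did. With voom on the estimated fragments none passed either, and Lig4 alone had an unadjusted p under 0.05 (0.0382). Adjusted p-values in limma ran from 0.424 for Lig4 to 0.970 for Xrcc4. Both KO libraries lay below both WT libraries for 2 genes, Lig4 and Xrcc5, where 31.7% of all genes did. Both lay above for 1, Nhej1, where 19.7% did. The groups overlapped for the other 7. With a negative log2 change for 7 of 10 genes (61.7% of all genes) and a median of -0.08 (-0.09 over all genes), the set stood near the background.

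**Figure D1:**
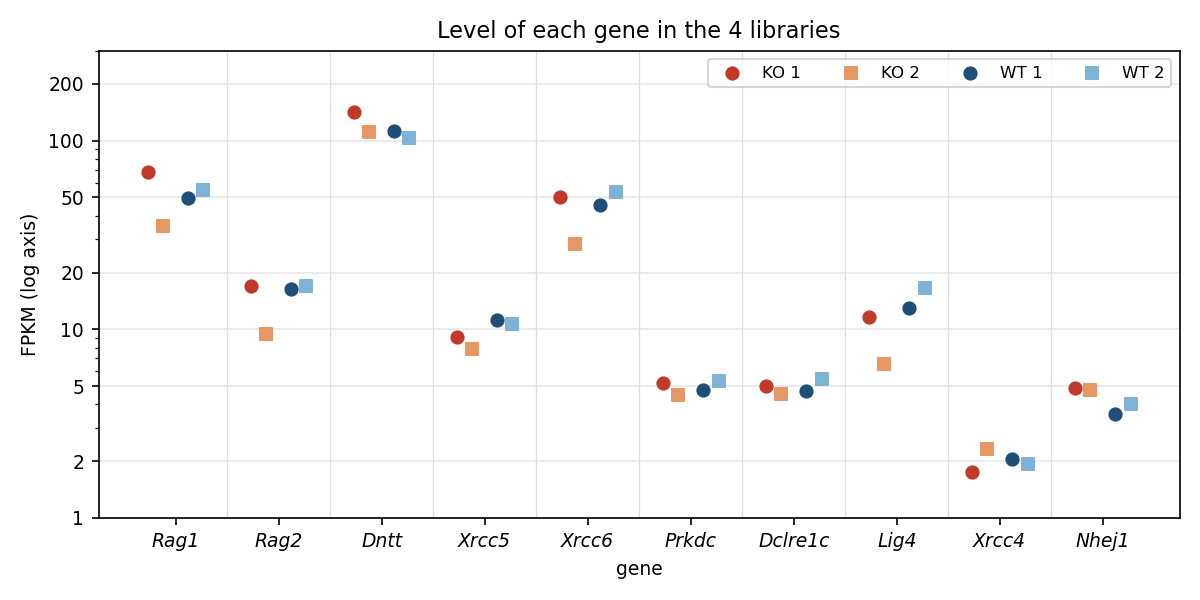
FPKM of the 10 genes in each library on a log axis, with KO 1 and KO 2 left of WT 1 and WT 2. Dntt lies at 104 to 142 FPKM in every library and Xrcc4 at 1.75 to 2.32 FPKM, and the KO 2 point lies below both WT points for 7 of 10 genes.

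Rag1 (ENSMUSG00000061311, GRCm38 chromosome 2, 101638282 to 101649501, minus strand) encodes the subunit that holds the catalytic site of the recombinase. Its level was 68.02 and 35.27 FPKM in KO 1 and KO 2, against 49.79 and 54.84 FPKM in WT 1 and WT 2. KO 1 was thus the highest library and KO 2 the lowest, with both WT libraries between them. The means were 51.6 ± 23.2 FPKM in KO and 52.3 ± 3.57 FPKM in WT (SD, n = 2 each). The log2 change was -0.09 ± 0.32 (SE), its 95% interval ran from -0.92 to 0.74, and the adjusted p was 0.896 in limma. KO 2 over KO 1 was 0.519-fold (95% counting interval 0.498 to 0.540, from about 3525 and 7120 fragments), while WT 2 over WT 1 was 1.10-fold. The difference within the KO group was therefore well beyond counting error. Without KO 2 the log2 change was 0.37, and without KO 1 it was -0.55.

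Rag2 (ENSMUSG00000032864, chromosome 2, 101624718 to 101632529, plus strand) encodes the regulatory subunit, which reads histone H3 methylated at lysine 4 through a PHD finger. It stands in convergent orientation beside Rag1. Its level was 16.94 and 9.44 FPKM in KO 1 and KO 2, against 16.28 and 16.94 FPKM in WT 1 and WT 2. KO 1 lay at the WT level, and KO 2 alone was low. The means were 13.2 ± 5.30 FPKM in KO and 16.6 ± 0.467 FPKM in WT (SD, n = 2 each). The group difference on the log2 scale was -0.36 ± 0.28 (SE), its 95% interval ran from -1.07 to 0.34, and the adjusted p was 0.562 in limma. Without KO 1 the log2 change was -0.75 and Rag2 passed, with an adjusted p of 0.0491 in limma, in a fit that assumes KO 2 to vary like the WT libraries and in which 2.88% of all genes were called lower. Without KO 2 the log2 change was 0.027.

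Both recombinase genes carry their whole coding sequence in 1 exon, 3120 bases in Rag1 and 1581 in Rag2, in GENCODE M21. Lig4 is the only other gene of the set of which this holds (2733 bases). A further gene, B230118H07Rik, spans the locus on the minus strand. It shares 80 exon bases with Rag1 and 208 with Rag2, which is 1.21% and 6.07% of their exons. Its level was 1.05 and 1.77 FPKM in KO and 1.84 and 1.16 FPKM in WT. B230118H07Rik lies on the same strand as Rag1, so assignment by strand could not separate reads in the bases those genes share. No source used here says whether reads were assigned by strand. Reads in the bases shared with Rag2 may therefore also be counted to either gene.

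Dntt (ENSMUSG00000025014, chromosome 19, 41029275 to 41059525, plus strand), which marks pro-B cells and early thymocytes, was the most abundant of the 10. Its level was 141.60 and 111.25 FPKM in KO 1 and KO 2, against 113.15 and 103.62 FPKM in WT 1 and WT 2. KO 1 was the highest library, and KO 2 lay between the WT libraries. The means were 126 ± 21.5 FPKM in KO and 108 ± 6.74 FPKM in WT (SD, n = 2 each). On the log2 scale KO minus WT was 0.21 ± 0.19 (SE), its 95% interval ran from -0.26 to 0.69, and the adjusted p was 0.609 in limma. It ranked above 97.1% to 98.1% of the genes tested in every library. In KO 2 its log2 difference from the WT mean was 0.039, where the 23 B lineage genes other than Rag1 had a median of -1.12. In KO 2 97.1% of all genes tested lay above that median. Thymocytes also express Rag1, Rag2 and Dntt. Of 16 T cell markers, 7 were at most at 1 FPKM in all 4 libraries, among them Cd3e and Ptcra, which encodes the pre-T cell receptor alpha chain and stood at 0.1 and 0.1 FPKM in KO and at 0 and 0.09 FPKM in WT. The other 9 exceeded 1 FPKM in at least 1 library, the highest being Lck, a kinase, at 20.93 and 13.18 FPKM in KO and 20.7 and 21.21 FPKM in WT, and Cd4 at 10.11 and 16.51 FPKM in KO and 8.99 and 7.92 FPKM in WT. None of the 16 was at 0 in all 4. The sum of the 16 was 67.9 and 52.5 FPKM in KO and 59.3 and 63.6 FPKM in WT. The 10 markers of plasmacytoid dendritic cells summed to 353 and 353 FPKM in KO and to 308 and 278 FPKM in WT. Of these 10, 8 lay above both WT libraries in both KO libraries and 1 below, where 19.7% and 31.7% of all genes did. The part of either list in the Dntt values was not tested.

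**Figure D2:**
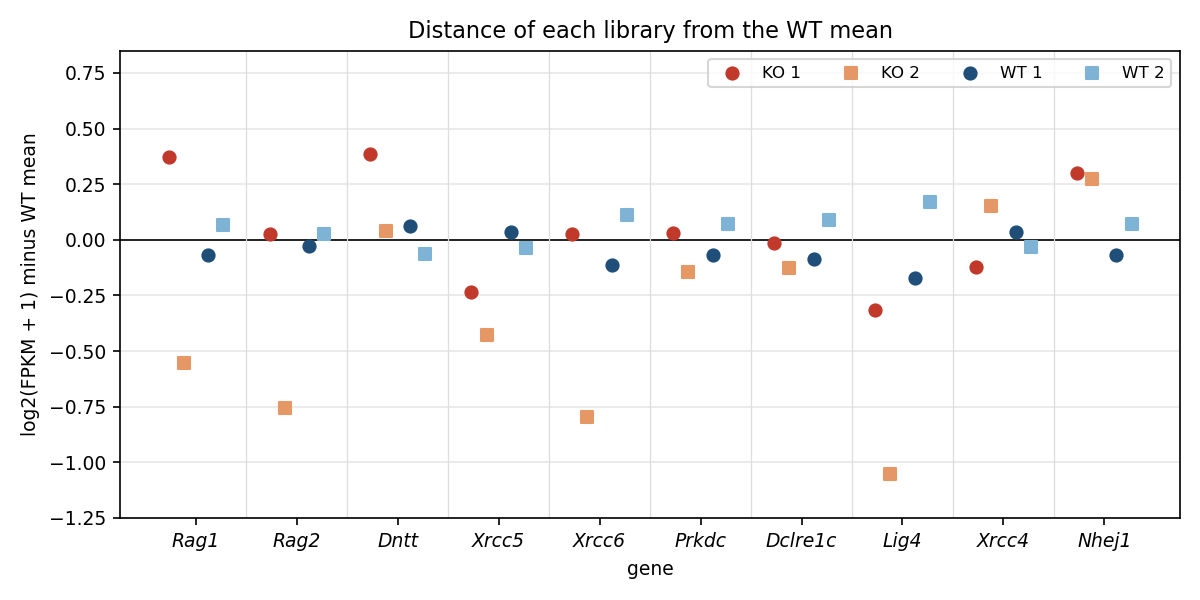
Difference of each library from the WT mean in log2(FPKM + 1) for the 10 genes, with KO libraries left of WT libraries. In KO 2 Lig4 lies at -1.05, Xrcc6 at -0.79, Rag2 at -0.75 and Rag1 at -0.55, while in KO 1 Rag1 lies at 0.37 and Dntt at 0.38.

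The genes of the Ku heterodimer differed in level and in pattern. Xrcc6 (ENSMUSG00000022471, chromosome 15, 81987835 to 82040085), which encodes Ku70, was at 50.51 and 28.19 FPKM in KO 1 and KO 2, against 45.84 and 53.73 FPKM in WT 1 and WT 2. KO 1 lay between the WT libraries and KO 2 below them, as for Rag2. On the log2 scale the change was -0.38 ± 0.30 (SE), its 95% interval ran from -1.14 to 0.37, and the adjusted p was 0.564 in limma. Xrcc5 (ENSMUSG00000026187, chromosome 1, 72307421 to 72394952), which encodes Ku80, was at 9.11 and 7.86 FPKM in KO, against 11.20 and 10.61 FPKM in WT. Both KO libraries lay below both WT libraries. The means were 8.48 ± 0.884 FPKM in KO and 10.9 ± 0.417 FPKM in WT (SD, n = 2 each). Its log2 change was -0.33 ± 0.15 (SE), its 95% interval ran from -0.70 to 0.041, and the adjusted p was 0.436 in limma. Desi1, on the other strand, shares 344 exon bases with Xrcc6, 7.69% of its exons, and was at 36.33 and 21.88 FPKM in KO and 37.20 and 41.02 FPKM in WT.

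Prkdc and Dclre1c, the kinase and the nuclease that open the hairpins, varied least by fold over the 4 libraries. Prkdc (ENSMUSG00000022672, chromosome 16, 15637866 to 15842235) was at 5.18 and 4.46 FPKM in KO 1 and KO 2, against 4.76 and 5.34 FPKM in WT 1 and WT 2. Dclre1c (ENSMUSG00000026648, chromosome 2, 3424131 to 3464130) was at 4.99 and 4.54 FPKM in KO, against 4.69 and 5.43 FPKM in WT. For both genes KO 1 lay between the WT libraries and KO 2 just below them. The log2 changes were -0.057 ± 0.16 for Prkdc and -0.070 ± 0.15 for Dclre1c (SE), with adjusted p of 0.865 and 0.830 in limma. The 95% intervals, -0.46 to 0.34 and -0.47 to 0.33, still allow a change of either sign. Of all pairs within the set their profiles over the 4 libraries were the closest, with a Euclidean distance of 0.056 between log2 values centred on each gene's mean. Dclre1c shares 357 exon bases with Suv39h2 on the other strand, 3.83% of its exons.

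Lig4 (ENSMUSG00000049717, chromosome 8, 9969049 to 9977686, minus strand), the ligase that seals the break, had the lowest log2 change of the 10. Its level was 11.60 and 6.56 FPKM in KO 1 and KO 2, against 12.91 and 16.65 FPKM in WT 1 and WT 2. Both KO libraries lay below both WT libraries, KO 2 furthest. The means were 9.08 ± 3.56 FPKM in KO and 14.8 ± 2.64 FPKM in WT (SD, n = 2 each), a 0.614-fold level in KO. The log2 change was -0.68 ± 0.29 (SE), its 95% interval ran from -1.41 to 0.048, and in limma the adjusted p was 0.424 and the unadjusted p 0.0615. The WT libraries also differed, with WT 2 over WT 1 at 1.29-fold (95% counting interval 1.19 to 1.40). Without KO 2 the log2 change was -0.31, and without KO 1 it was -1.05.

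Neither of the structural partners of the ligase had both KO libraries below both WT libraries. Xrcc4 (ENSMUSG00000021615, chromosome 13, 89774027 to 90089608), the scaffold that stabilises ligase IV, was at 1.75 and 2.32 FPKM in KO 1 and KO 2, against 2.06 and 1.92 FPKM in WT 1 and WT 2. It was the only gene of the set that was higher in KO 2 than in KO 1, and KO 1 and KO 2 lay on either side of the WT libraries. These values rest on about 117 and 148 fragments in KO and 137 and 133 in WT. The counting interval of KO 2 over KO 1 was 1.03 to 1.70. Its log2 change was 0.016 ± 0.19 (SE), its 95% interval ran from -0.47 to 0.50, and the adjusted p was 0.970 in limma. Xrcc4 shares 112 exon bases, 2.66% of its exons, with Tmem167 on the other strand.

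Nhej1 (ENSMUSG00000026162, chromosome 1, 74967139 to 75125200), which encodes XLF, was at 4.91 and 4.79 FPKM in KO 1 and KO 2, against 3.57 and 4.03 FPKM in WT 1 and WT 2. Both KO libraries lay above both WT libraries, and the KO libraries lay close together. The means were 4.85 ± 0.085 FPKM in KO and 3.80 ± 0.325 FPKM in WT (SD, n = 2 each). On the log2 scale KO minus WT was 0.29 ± 0.15 (SE), its 95% interval ran from -0.10 to 0.67, and the adjusted p was 0.471 in limma. The values rest on about 87 and 81 fragments in KO and 63 and 74 in WT, the fewest of the set. The coding model of Nhej1 in GENCODE M21 is incomplete at its start, so its FPKM covers the last 5 exons and a separate stretch of 65 bases. The counting interval of WT 2 over WT 1 was 0.797 to 1.61. It compares 2 single libraries, so it cannot say whether the 1.28-fold difference between the group means lies within counting error.

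The order of levels per length was the same in both groups for the upper genes. Dntt was highest, then Rag1 and Xrcc6, whose levels differed less than the spread within KO, then Rag2. Lig4 and Xrcc5 followed, and changed places between KO 2 (6.56 and 7.86 FPKM) and the other libraries. Prkdc, Dclre1c and Nhej1 came next, at 3.57 to 5.43 FPKM, and Xrcc4 was lowest. In WT 1 and WT 2 Nhej1 (3.57 and 4.03 FPKM) lay below both Prkdc and Dclre1c. In KO it lay below both in KO 1 (4.91 FPKM) and above both in KO 2 (4.79 FPKM). FPKM here divides by all annotated exons of a gene. Xrcc4 and Dclre1c have 4213 and 9316 exon bases for coding lengths of 978 and 2115, so genes with long or rarely used annotated exons read low on this scale.

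KO 2 lay below both WT libraries for 7 of the 10 genes, as did 58.3% of all genes tested. KO 1 did so for 3 of 10, against 39.2% of all genes. KO 2 lay below KO 1 for 9 of 10, against 63.1% of all genes. The wider difference between KO 1 and KO 2 than between WT 1 and WT 2, seen for 8 of 10 genes, held for 73.5% of all genes. For 7 of the 10, the counting interval of KO 2 over KO 1 left out equality, and for 6 that of WT 2 over WT 1 did. The share of all genes was not computed for these counts. Such intervals narrow with more fragments, so the counts are not read as a result about the set. Relative to the 23 B lineage genes other than Rag1, all 10 genes lay above the median of -1.12 in KO 2, as did 97.1% of all genes tested. In KO 1 9 of 10 lay above the median of -0.30, as did 87.7% of all genes, Lig4 being the exception at -0.31.

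Ratios of partner genes within a library do not depend on how the library was scaled. The ratio of Rag1 to Rag2 was 4.02 and 3.74 in KO 1 and KO 2, against 3.06 and 3.24 in WT 1 and WT 2. Rag1 stood higher relative to Rag2 in both KO libraries, although KO 2 over KO 1 was 0.519-fold for Rag1 and 0.557-fold for Rag2. The means were 3.88 ± 0.197 in KO and 3.15 ± 0.127 in WT (SD, n = 2 each), a 1.23-fold higher ratio in KO. The exact two-sided permutation p was 0.333, the smallest that 2 against 2 can give, and it was 1 after adjustment over the 6 ratios computed. By counting error alone the interval in KO 2 (3.40 to 4.11) reached into that of WT 2 (3.02 to 3.47), and that of KO 1 (3.75 to 4.30) did not.

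The other 5 ratios overlapped between the groups. Lig4 to Xrcc4 was 6.63 and 2.83 in KO, against 6.27 and 8.67 in WT, so KO 2 stood apart while KO 1 lay between the WT libraries. Dntt to Rag1 was 2.08 and 3.15 in KO, against 2.27 and 1.89 in WT, with KO 2 the highest. Xrcc5 to Xrcc6 was 0.180 and 0.279 in KO, against 0.244 and 0.197 in WT, with KO 1 lowest and KO 2 highest. Nhej1 to Xrcc4 was 2.81 and 2.06 in KO, against 1.73 and 2.10 in WT. Prkdc to Dclre1c was the most even, at 1.04 and 0.982 in KO and 1.01 and 0.983 in WT.

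**Figure D3:**
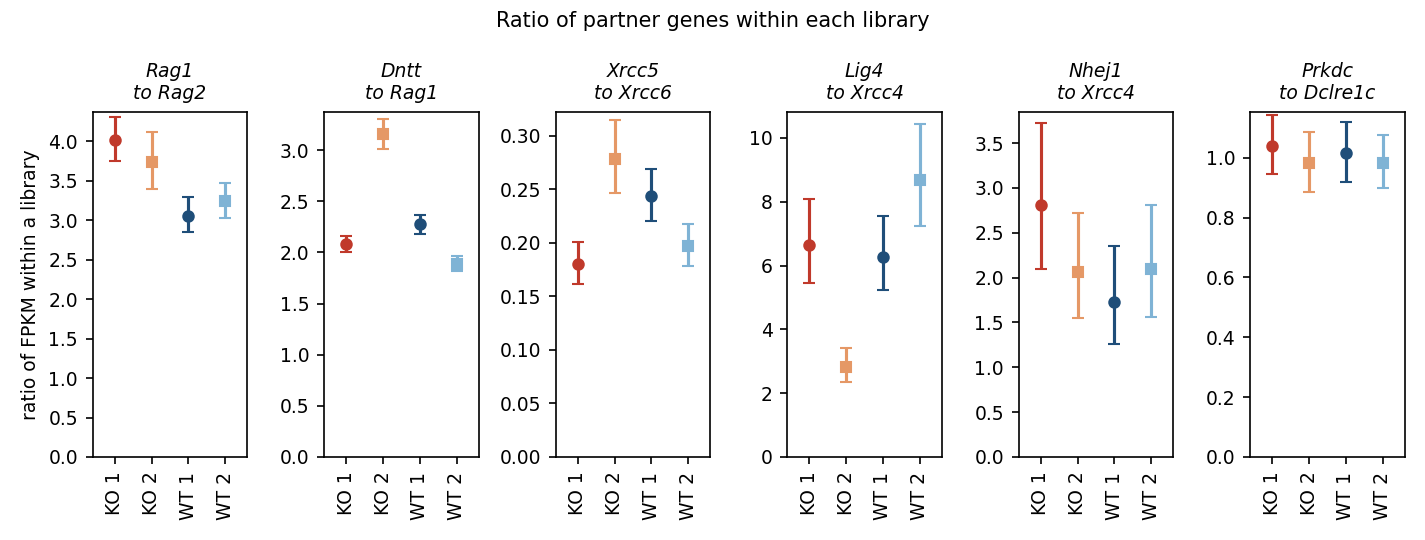
Ratio of FPKM of 6 partner genes within each library, KO libraries left of WT libraries, each panel from 0 on its own axis, with bars for the 95% counting interval. Rag1 to Rag2 is 3.74 or more in KO and 3.24 or less in WT, and Lig4 to Xrcc4 is 2.83 in KO 2.

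Related genes of break repair and recombination were read from 6 further lists, and all 93 listed genes passed the filter. None passed at an adjusted p under 0.05 in limma or with voom on the estimated fragments, and 8 had an unadjusted p under 0.05 in limma (12.5% of all genes did). Of 12 accessory end joining genes, 6 lay below both WT libraries in both KO libraries and 3 above, where 31.7% and 19.7% of all genes did. Polm, a polymerase of the terminal transferase family that acts in light chain joining, was at 18.54 and 8.68 FPKM in KO, against 19.41 and 23.66 FPKM in WT (adjusted p = 0.458 in limma). Polm was thus low chiefly in KO 2.

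Of 18 genes of the break response, 17 had a negative log2 change and 10 lay below both WT libraries (61.7% and 31.7% of all genes did), with a list median of -0.25 against -0.09 over all genes. Rad50, part of the complex that senses broken ends, was at 17.03 and 15 FPKM in KO, against 19.06 and 20.43 FPKM in WT (adjusted p = 0.456 in limma). H2afx, the histone variant phosphorylated around breaks, was at 371.57 and 251.50 FPKM in KO, against 414.72 and 419.04 FPKM in WT (adjusted p = 0.482 in limma). Of 8 alternative end joining genes 7 were negative and 4 lay below both WT libraries (median -0.27), beside the same shares of all genes. Lig1, the ligase of replication, was at 67.37 and 54.64 FPKM in KO, against 84.16 and 85.16 FPKM in WT (adjusted p = 0.380 in limma). Polq, the polymerase of microhomology-mediated joining, was at 7.20 and 6.42 FPKM in KO, against 8.67 and 9.67 FPKM in WT (adjusted p = 0.397 in limma). In these 4 genes both KO libraries lay below both WT libraries.

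Of 20 homologous recombination genes 18 were negative and 15 lay below both WT libraries, against 61.7% and 31.7% of all genes, with a median of -0.30. Rad54l, a motor protein of strand exchange, was at 8.63 and 7.83 FPKM in KO, against 10.70 and 11.47 FPKM in WT (log2 change -0.39 ± 0.14 SE, adjusted p = 0.385 in limma). Of 13 genes of locus structure, the cohesin, CTCF and chromatin factors that shape antigen receptor loci, all 13 were negative and 8 lay below both WT libraries, set against those same shares (median -0.26). Rad21, a cohesin subunit, was at 105.63 and 106.45 FPKM in KO, against 131.80 and 139.39 FPKM in WT (adjusted p = 0.429 in limma). KO 1 and KO 2 were nearly alike for Rad21.

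The 22 genes that act on the recombinase, as transcription factors or binding partners, had the lowest median of the 6 lists, -0.41, with -0.11 in KO 1 and -0.72 in KO 2. Of these 18 were negative and 11 lay below both WT libraries, where 61.7% and 31.7% of all genes did. Kpna2, an importin that binds RAG1, was at 24.79 and 17.45 FPKM in KO, against 38.19 and 40.45 FPKM in WT (log2 change -0.89 ± 0.20 SE, adjusted p = 0.300 in limma). Skp2, part of the ubiquitin ligase that degrades RAG2 as cells enter S phase, was at 6.52 and 4.43 FPKM in KO, against 8.32 and 8.08 FPKM in WT (adjusted p = 0.395 in limma). Gfi1b, a repressor of Rag transcription that is also used in erythroid cells, was at 10.87 and 11.24 FPKM in KO, against 22.79 and 14.71 FPKM in WT (adjusted p = 0.372 in limma). The 12 erythroid markers summed to 356 and 666 FPKM in KO and to 1344 and 785 FPKM in WT, and their part in the Gfi1b values was not tested. Spi1, also expressed in myeloid cells, was at 72.59 and 109.53 FPKM in KO, against 56.12 and 48.98 FPKM in WT (adjusted p = 0.370 in limma). The sum of the neutrophil markers was also higher in KO, and their part in the Spi1 values was not tested. Without KO 1, 11 of the 93 related genes passed, among them Spi1, Kpna2 and Lig1, where 7.1% of all genes did.

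**Figure D4:**
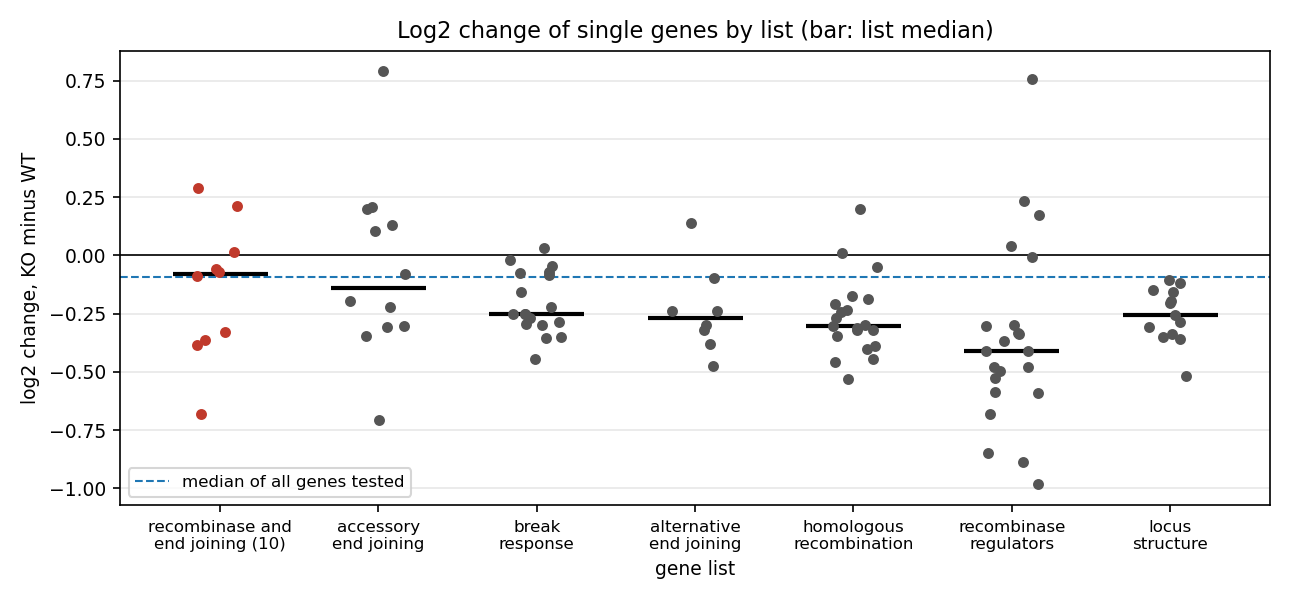
Log2 change (KO minus WT) of each gene by list, with a bar at the list median and a dashed line at the median of all genes tested, -0.09. The 10 recombinase and end joining genes have a median of -0.08, and the medians of the 6 related lists lie between -0.14 and -0.41.

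Among 7509 protein-coding genes averaging 5 FPKM or more, the profile over the 4 libraries closest to Rag1 was that of Zfp428, at 14.82 and 7.43 FPKM in KO and 10.60 and 11.08 FPKM in WT (Euclidean distance 0.079). Epb41l4b and Rtl10 followed at 0.087 and 0.089. Closest to Rag2 was Myo1c, at 52.42 and 29.77 FPKM in KO and 49.30 and 53.05 FPKM in WT (0.037), then Recql4 and Grap (0.046 and 0.048). Closest to Dntt was Tpgs1, at 19.95 and 15.33 FPKM in KO and 15.71 and 14.51 FPKM in WT (0.020), then Kbtbd11 and AI837181 (0.049 and 0.052). With only 4 libraries, nearness of profiles is a description and was not tested. Within the set, Rag2 lay nearer to Xrcc6 (0.125) than to Rag1 (0.298).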

How the data were processed

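The authors deposited FPKM, per the file headers, as 1 table a library with 55573 mouse Ensembl identifiers and values to 2 decimals. The submitters' processing notes name the build mm9, and no source used here gives the aligner, the counting program or the use of strand. Symbols, GRCm38 coordinates and exon lengths came from GENCODE M21, which held 55394 of the identifiers. FPKM times exon length gave whole fragments in 99.4% to 99.6% of the low values checked (within 0.15 fragments, where chance gives 30%), which supplied fragment numbers. Counting intervals are exact 95% binomial intervals and cover counting error only.

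Log2(FPKM + 1) was tested with limma 3.58.1 in R 4.3.3 with eBayes fitting a trend of variance on mean and genotype as the only term. It covered 13281 genes whose KO or WT mean reached 1 FPKM. Benjamini-Hochberg adjustment ran over all of them, and calls needed an adjusted p under 0.05. The scale understates changes of low genes. The 10 genes and the lists were chosen with earlier results of these data known. Named genes are the 10, Adar, genes overlapping the 10, genes from among the 4 with the smallest p of each related list, and the 3 profiles nearest to Rag1, Rag2 and Dntt. Cd3e, Ptcra, Lck and Cd4, of the T cell markers, and the 3 neighbours in the closing section were named after their values were seen. Some genes are not reported here. The alternatives were other pseudocounts, filters, scalings, blocks and the omission of each library.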

Additional observations from a re-analysis of the deposited data

How the results depend on the processing

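Of the 10 genes, Rag2 passed without KO 1 and no other passed under any of the 15 alternatives, of which the stricter filter of 5 FPKM tested 8 genes, without Xrcc4 and Nhej1, so the number passing ranged from 0 to 1 when a library was left out. Of 108 log2 changes of single genes under the settings that kept all libraries, 98 kept their sign and their side of the threshold and 10 reversed. Under both blocks, both other filters and the fit without a trend, the log2 change equals that of the main fit by construction. Its sign could not reverse there, so the count of 98 overstates how stable the signs were. Scaling to the B lineage list raised the median of all genes by 0.95 and gave log2 changes of 0.86 for Rag1, 0.58 for Rag2, 0.62 for Xrcc5, 0.56 for Xrcc6, 0.89 for Prkdc, 0.88 for Dclre1c and 0.26 for Lig4. Relative to the median of all genes these equal 0.0041, -0.27, -0.24, -0.29, 0.037, 0.024 and -0.59, as before scaling. Quantile normalization gave 0.021 for Prkdc and 0.0086 for Dclre1c, and median centring 0.011 for Prkdc. Leaving out each library in turn gave ranges of -0.55 to 0.37 for Rag1, -0.75 to 0.027 for Rag2, -0.79 to 0.025 for Xrcc6, -0.15 to 0.032 for Prkdc, -0.16 to 0.018 for Dclre1c and -0.12 to 0.15 for Xrcc4. Lig4 stayed between -1.05 and -0.31, Xrcc5 between -0.43 and -0.24, Dntt between 0.039 and 0.38 and Nhej1 between 0.22 and 0.36. The Rag1 to Rag2 ratio, as a log2 difference, stayed between 0.25 and 0.35.

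Over all genes, 0 higher and 27 lower calls became 0 to 563 higher and 0 to 385 lower when a library was left out, with both upper ends without KO 1. With the replicate block there were 7 higher and 61 lower, and with the crossed block (WT 1 with KO 2), chosen after seeing the data, 46 higher and 167 lower. Same-numbered libraries deviated from their group means with a correlation of -0.149 across genes, which gives no sign of pairing by number, and neither block made any of the 10 genes pass. B lineage scaling gave 761 higher and 70 lower, the stricter filter and the fit without a trend 1 higher each, a pseudocount of 0.1 gave 15 lower, voom on estimated fragments 8 lower and no filter 0. Of the related genes, 2 passed with B lineage scaling and 0 to 11 when a library was left out. The cause was not tested. Depth limits Nhej1 and Xrcc4 most, at no more than 148 fragments a library.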

Other observations

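Of the 10 genes, 3 start close to a neighbour on the other strand, chosen for mention after their values were seen. Lig4 starts 21 bases from Abhd13, which was at 10.75 and 10.28 FPKM in KO 1 and KO 2, against 10.78 and 11.53 FPKM in WT 1 and WT 2 (log2 change -0.08 ± 0.13 SE, adjusted p = 0.778 in limma). Abhd13 in KO 2 lay close to its own level in KO 1 and WT 1, while KO 2 was the lowest library for Lig4. Prkdc starts 466 bases from Mcm4, a subunit of the replicative helicase, which was at 90.68 and 71.45 FPKM in KO, against 108.17 and 103.72 FPKM in WT (log2 change -0.39 ± 0.18 SE, adjusted p = 0.441 in limma). Xrcc4 starts 485 bases from Tmem167, at 4.68 and 4.37 FPKM in KO, against 5.29 and 5.58 FPKM in WT (log2 change -0.22 ± 0.14 SE, adjusted p = 0.525 in limma). Differences between neighbours were not tested.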
